A study of Mus musculus with 18 samples.

Results

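Liver, heart and kidney of young mice on ordinary chow were compared at the messenger RNA level, to describe what the liver transcribes that the other organs do not. The series holds 18 mRNA libraries from wild-type C57BL/6J mice, in 6 groups of 3 by organ and diet. The 9 libraries used here were all those on standard chow: 3 of liver, 3 of heart and 3 of kidney, labelled as biological replicates. These mice went onto their study diet at 4 weeks of age and were fed it for 21 days, so tissue was taken at 7 weeks of life. By their labels all 3 groups thus shared strain, genotype, diet and age, and the organ was the labelled difference. The labels name no sex, and no library was made from purified cells, so each value is an average over all cell types of an organ. The 9 ketogenic diet libraries were not used.

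The liver is built mainly of hepatocytes, which secrete most proteins of blood plasma, make bile acids, detoxify ammonia through the urea cycle, hold glucose as glycogen, release it in fasting, and oxidise drugs and steroids. This repertoire is set by a small network of transcription factors, among them HNF4A, the FOXA proteins and C/EBP alpha, which bind one another's promoters as well as those of the secreted proteins. Heart muscle contracts and burns fat and ketone bodies, and the kidney tubule reabsorbs solutes, shares gluconeogenesis with the liver and takes part in drug clearance. The proximal tubule also uses HNF4A, so kidney and heart are unlike references.

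The promoters of 6 genes with a high level in liver are shown because they carry the short sequences that these factors are known to bind. Each is the stretch of 150 bases just before the transcription start, from RefSeq on GRCm38.p6, written 5′ to 3′ on the gene's own strand, with capitals for the motifs searched. Alb (albumin, the main plasma protein) lies at chr5:90460720-90460869 on the plus strand and Apoa1 (the main protein of high-density lipoprotein) at chr9:46228480-46228629 on the plus strand. Fgb (a fibrinogen chain of the clot) lies at chr3:83049864-83050013 on the minus strand and Serpina1a (an alpha-1-antitrypsin, the plasma elastase inhibitor) at chr12:103863620-103863769 on the minus strand. Ahsg (fetuin-A, a plasma inhibitor of calcification) lies at chr16:22891865-22892014 on the plus strand and Cyp2c67 (a steroid and drug oxidase) at chr19:39649043-39649192 on the minus strand.
Alb: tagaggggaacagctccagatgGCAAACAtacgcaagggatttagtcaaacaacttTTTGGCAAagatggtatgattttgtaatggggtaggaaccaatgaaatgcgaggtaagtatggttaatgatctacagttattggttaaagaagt
Apoa1: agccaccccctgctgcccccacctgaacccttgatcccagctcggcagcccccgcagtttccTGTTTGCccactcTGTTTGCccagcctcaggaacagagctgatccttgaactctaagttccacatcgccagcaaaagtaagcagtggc
Fgb: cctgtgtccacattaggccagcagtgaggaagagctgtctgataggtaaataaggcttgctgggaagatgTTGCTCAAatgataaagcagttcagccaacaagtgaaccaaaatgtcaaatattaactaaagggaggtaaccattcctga
Serpina1a: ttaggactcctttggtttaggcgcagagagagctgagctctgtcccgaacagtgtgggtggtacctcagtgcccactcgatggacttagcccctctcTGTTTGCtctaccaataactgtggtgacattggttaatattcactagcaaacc
Ahsg: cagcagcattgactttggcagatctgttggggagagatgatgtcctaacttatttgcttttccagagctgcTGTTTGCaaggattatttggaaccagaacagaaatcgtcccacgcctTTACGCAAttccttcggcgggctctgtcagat
Cyp2c67: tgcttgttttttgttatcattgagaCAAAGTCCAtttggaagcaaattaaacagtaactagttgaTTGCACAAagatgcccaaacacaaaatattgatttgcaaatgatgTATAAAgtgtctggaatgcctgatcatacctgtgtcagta

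The motifs searched were CAAAGTCCA for HNF4, TGTTTGC or TGTTTAC for FOXA, TTGCNNAA for C/EBP, each on both strands, and TATAAA on the sense strand between 40 and 16 bases before the start. In Alb the C/EBP match began 94 bases and the FOXA match 128 bases before the start. Apoa1 had a pair of FOXA matches, which began 88 and 75 bases before the start. Fgb had a C/EBP match from base 80 before the start, and Serpina1a a FOXA match from base 53. Ahsg carried C/EBP and FOXA matches, which began 32 and 79 bases before the start. Cyp2c67 carried an HNF4 match from base 125, a C/EBP match from base 85 and a TATA box from base 40. A match is a description of letters, and binding was not measured.

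Among the genes that stood at least 4-fold above both organs in liver, promoters held each of these motifs more often than promoters did over all genes tested. The share was counted in the 250 bases before each annotated start, in 893 windows of 723 of the 991 liver genes and in 14984 windows of 11803 of the 15171 genes tested, as matched to RefSeq by symbol. The C/EBP motif stood in 15.2% of the windows of liver genes and 7.88% of all windows, and the FOXA motifs stood in 10.3% and 5.71%. The HNF4 motif stood in 1.9% against 0.42% and the TATA box in 5.38% against 1.52%. In the 1458 windows of genes at least 4-fold below both organs the shares were 7.48% for C/EBP, 5.21% for FOXA, 0.137% for HNF4 and 2.19% for the TATA box. Over all 32851 windows of the table, expressed or not, they were 9.56%, 7.29%, 0.384% and 1.99% in the same order. These shares are a description, with no test.

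Most genes differed between liver and the average of the other organs. Of 15171 genes with enough counts to test, 5575 (36.7%) were higher in liver than the mean of heart and kidney, 6292 (41.5%) were lower and 3304 did not pass. The test was edgeR's quasi-likelihood test with Benjamini-Hochberg adjustment over all 15171 genes, at an adjusted p under 0.05, and every adjusted p given here comes from it. Differences are log2 fold changes, liver minus the average of the heart and kidney values, and their median over all genes tested was -0.11. A gene higher than that average can still lie below 1 organ. Of the 5575, the kidney level was above the liver level for 504 and the heart level for 263. A gene was called liver-enriched where it passed against heart and against kidney separately and stood at least 4-fold above each: 991 genes (6.53%) did. The reverse, a fitted fold of at least 4 below both, held for 1492 genes (9.83%). Of these, 216 had no count in any liver library, so the counts set only a bound on their folds. Some of them were under 4 times the level of 3 counts in a liver library in 1 organ. Mylk4 was at 0.604 times that level in kidney and Slc7a13 at 0.371 times in heart. Others were far above it in both, such as Fabp3, at 10430 times in heart and 288.8 times in kidney. For all 991 enriched genes the 3 liver libraries lay above all 6 others, and for 1459 of the 1492 depleted genes they lay below all 6. The genes were chosen by their folds in these same libraries, so this separation largely follows from the choice and adds no support. A fitted fold of at least 100 over each organ was reached by 289 genes upward and by 132 downward. Where a group had no count, the fitted fold can exceed what the counts bound. Myh6, with no liver count, had a fitted log2 fold change of -7.31 against kidney. Its kidney level was 5.26 times that of 3 counts in a liver library. In bulk tissue, fewer cells of a type and less RNA per cell cannot be told apart, and this holds for every difference given here.

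The enriched genes were few but held the larger share of the liver's counts. The 991 genes held 54.1%, 52.9% and 52.3% of the counts of the liver libraries, a mean of 53.1% ± 0.897 (SD, n = 3), against 1.43% ± 0.268 in heart and 3.21% ± 0.0819 in kidney. edgeR's TMM method, which scales libraries so that the bulk of genes is level, gave liver libraries factors of 0.673 to 0.731 and kidney libraries 1.33 to 1.38. Under scaling to total counts instead, the median difference moved from -0.11 to -0.87, the higher and lower genes numbered 2640 and 10236, and 20.5% of the calls were higher instead of 47.0%. Small differences, above all those over kidney, depend on this choice, and those of named genes that did are given with the genes shared with kidney or beside the gene.

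Depth and purity of the 9 libraries were as follows. Total counts were 17198629 to 23835383 a library, so 3 counts, taken as the floor of detection, were 0.187 CPM in liver, 0.149 in heart and 0.126 in kidney. CPM, counts-per-million, are taken over the effective library size after TMM scaling. Heart library 3 stood apart: Myl7, an atrial myosin light chain, was at 1938 CPM there and at no more than 1.07 in any other of the 9, and Adipoq, an adipocyte hormone, was at 24 CPM against 0.219 and 0.0562 in the other hearts. Kidney library 3 had 57.7 CPM of Alb against 11.7 and 5.72. Leaving out heart 3 and kidney 3 together, an alternative chosen after seeing the data, gave 1015 enriched genes, 966 of them among the 991, and 1419 depleted genes, 1351 of them among the 1492. Xist was at no more than 0.26 CPM and Ddx3y, a gene of the Y chromosome, at 40.3 to 110 CPM in all 9 libraries.

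The carrier proteins of blood plasma include albumin, whose RNA was the most abundant in liver. All 27 tested members of that list were higher in liver and 26 were enriched, with a median difference of 10.21 (10.20 with genes that had no count in an organ set at their lower bound), and they held 15.6% ± 0.356 (SD, n = 3) of liver counts against 0.0261% in heart and 0.0458% in kidney. Alb was at 134128, 137767 and 126075 CPM in the liver libraries, 12.3, 4.39 and 14.6 in heart and 11.7, 5.72 and 57.7 in kidney. It alone made up 9.34% of liver counts, its groups did not overlap, and its difference was 13 (SE 0.87, adjusted p = 4.09e-07). Trf, transferrin, the iron carrier, was at 32634, 28428 and 25841 CPM in liver and at 66.4 to 97.9 in heart and 28.9 to 32.1 in kidney. Its difference was 9.23 (SE 0.22, adjusted p = 2.53e-11), and both other organs had transferrin RNA above the floor in every library. Ttr, the thyroxine carrier transthyretin, was at 7955 to 9989 CPM in liver, 0.337 to 1.83 in heart and 75 to 105 in kidney. Rbp4 (the retinol carrier) and Gc (the vitamin D carrier) had differences of 10.87 and 10.98. Hpx, hemopexin, which binds free heme, had a difference of 12.76.

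Ahsg and the major urinary and antitrypsin families belong to the same secreted set. Mup3, a pheromone carrier of the major urinary proteins, was at 5146, 4722 and 4477 CPM in liver and at no more than 3.09 in any other library. Serpina1e, an alpha-1-antitrypsin, was at 12576, 5082 and 3825 CPM in liver, so the liver libraries differed among themselves by more than for albumin, yet all lay above the highest other value of 4.23. Both families are sets of near-identical copies among which reads were split, so the member-by-member levels are uncertain. Ahsg had a difference of 11.71 that became 14.35 without heart 3 and kidney 3, in which it was at 21.1 and 5.61 CPM. Cps1 and Alb moved the same way, from 13.38 to 14.99 and from 13 to 13.93.

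**Figure D1:**
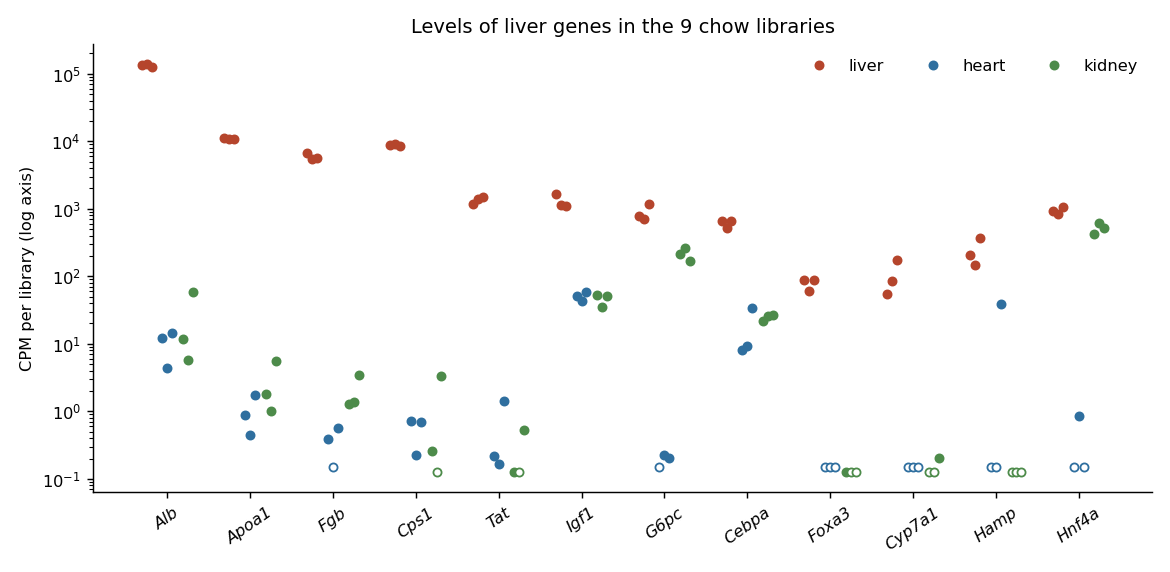
Level of 12 liver genes in each of the 9 chow libraries, in CPM (counts-per-million of the effective library size, log axis), with 1 symbol a library in the order of replicates and colours for liver, heart and kidney. Open symbols mark libraries under the floor of 3 counts, drawn at the floor. Liver lies above the others for each gene, while kidney comes close to liver for Hnf4a and G6pc.

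Clotting factors formed the next group. Of 31 coagulation genes tested, 26 were higher in liver, 22 of them enriched, and the median difference was 10.17. The 3 fibrinogen chains stood close together: Fga was at 7726 to 9653 CPM in liver, Fgb at 5547 to 6688 and Fgg at 4990 to 6136, and all 3 had between 0.0562 and 15.1 CPM in the other organs. Fgb had the largest difference of the 3, 12.75 (SE 0.42, adjusted p = 1.18e-09), and Fga the smallest, 11.65. F2, prothrombin, had a difference of 12.81, Plg (plasminogen, which dissolves clots) 12.72 and Serpinc1 (antithrombin) 11.86. The 5 members that were lower in liver were F3, Vwf, Tfpi, Thbd and F13a1, which are known as products of endothelium, perivascular cells or macrophages rather than hepatocytes. F3, tissue factor, was at 5.33 to 8.04 CPM in liver, 17.5 to 19.9 in heart and 11.3 to 13.3 in kidney, a difference of -1.21 (SE 0.14, adjusted p = 9.5e-06). Vwf, the endothelial platelet adhesion factor, was below heart by 3.27 but above kidney by 1.33. Under total counts its difference over kidney was 0.38 and did not pass (adjusted p = 0.241).

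Complement and acute-phase genes followed with smaller medians. Of 28 complement genes, 26 were higher in liver, 20 enriched, with a median of 6.52, Cd46 was lower (adjusted p = 0.0114, and 0.0536 without liver 3) and Cfd did not pass. Cd46 was near the floor in liver and heart, at 0.128 to 0.385 and 0.225 to 0.438 CPM, and at 1.23 to 1.92 in kidney. Its difference was -2.52 against kidney (adjusted p = 0.000267), and against heart it did not pass (-0.25, adjusted p = 0.673). C3, the central component, was at 18091, 15141 and 13173 CPM in liver, but heart held 121, 188 and 318 CPM of it and kidney 35.2 to 37.3, so the difference was 7.47. C9, which forms the membrane pore, was nearly exclusive to liver at 574, 328 and 419 CPM against at most 0.163. Cfd, the complement protease adipsin that fat tissue makes, had between 0.0548 and 67.4 CPM in the other organs, most of it in heart 3 and kidneys 2 and 3, and under 0.12 in liver. Its difference was -7.97 with an adjusted p of 0.073, and it passed as lower under total counts (adjusted p = 0.0465), with DESeq2 (2.98e-05) and with all 18 libraries in 1 model (0.0251). Without heart 3 the difference was -3.96 (adjusted p = 0.521). In heart 3 and kidneys 2 and 3 the summed adipocyte markers were also higher (given with the cell types below). That list holds Cfd itself, at 67.4, 40.5 and 23.5 CPM of these sums. The part of adipocyte RNA in this result was not tested.

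Acute-phase and iron genes were higher in 16 of 17 tested members, 9 of them enriched, with a median of 4.42, and Fth1, the ferritin heavy chain, did not pass. Under upper quartile scaling and under total counts Fth1 was lower, at -0.32 (adjusted p = 0.0103) and -0.86 (adjusted p = 4.59e-06). Crp, the C-reactive protein, was at 520, 454 and 433 CPM in liver and had no count in any heart library, at least 3157-fold above the floor there. Hamp, hepcidin, the hormone that closes intestinal iron export, varied between liver libraries, at 205, 149 and 376 CPM, and its heart counts were 0, 1 and 968. The difference was 8.22 (SE 1.67, adjusted p = 0.00356) with all libraries and 12.94 without heart 3 and kidney 3. Hp, haptoglobin, which binds free hemoglobin, was likewise at 23.2 CPM in heart 3 against 0.493 and 0.337 in the other hearts.

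Lipoprotein genes were higher in liver in 25 of 25 cases, with 23 enriched and a median difference of 9.32, and they took 5.04% of liver counts. Apoa1 was at 11160, 10681 and 10890 CPM in liver and at no more than 5.61 elsewhere, a difference of 12.61 (SE 0.59, adjusted p = 3.49e-08). Apoa2, of the same particles, had 11.21. Apob, the structural protein of very-low-density lipoprotein, was at 20567 to 25169 CPM in liver, 1.12 to 2.74 in heart and 184 to 274 in kidney. Its difference was thus 13.38 over heart but 6.65 over kidney. Apoe, the ligand by which remnants are taken up, was at 15118 CPM per kilobase of exon in liver, against 64932 for Alb and 11076 for Apoa1 in the same unit. Its difference was 6.20, with 300.1 to 664 CPM in heart and 136 to 167 in kidney. Apoa5, a regulator of triglyceride clearance, had 3 counts in all of heart, and its ratio to that was 26400 with a 95% counting interval of 9020 to 128000. Mttp, which loads lipid onto apolipoprotein B, had a difference of 6.40.

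Bile acid genes, whose products turn cholesterol into detergents and move them through the hepatocyte, were higher in all 23 cases, 20 of them enriched, with a median of 7.73. Cyp7a1, the rate-limiting enzyme, was at 54.2, 86.4 and 177 CPM in liver, so the livers differed widely among themselves. Heart and kidney had almost no counts: the heart total was 2, and the ratio to it was 3200 with a counting interval of 886 to 26400. The difference over the mean was 10.92 (SE 0.65, adjusted p = 1.37e-06). Cyp8b1, which decides the cholic acid share, stood at 496 to 602 CPM, and the uptake and export transporters Slc10a1 and Abcb11 at 979 to 1237 and 1231 to 1343 CPM. Their differences were 12.39, 11.72 and 12.85. Cyp27a1, the mitochondrial enzyme of the alternative route, was present in every organ, with a difference of 5.42. Nr0b2, a nuclear repressor that feeds back on Cyp7a1, was at 53.0 to 85.7 CPM in liver, 10.1 to 10.5 in heart and 1.37 to 1.92 in kidney.

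The urea cycle was split by organ. All 12 of its genes were higher in liver, with a median of 5.84, but only 7 were enriched over both organs. Cps1, the mitochondrial entry enzyme, was at 8678, 9228 and 8551 CPM in liver and at most 3.29 elsewhere, a difference of 13.38 (SE 0.90, adjusted p = 1.95e-06). Otc (the next step) had a difference of 12.04 and Arg1 (arginase, the last step) 12.31. Between these, the cytosolic pair that makes arginine was shared with kidney: Ass1 was at 3608 to 3765 CPM in liver and 1305 to 1562 in kidney but 2.36 to 3.71 in heart, and Asl at 462 to 464, 138 to 155 and 5.46 to 5.74. Their differences over kidney were 1.32 and 1.68, against 10.24 and 6.37 over heart. Kidney is known to make arginine for the rest of the body with these 2 enzymes.

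Enzymes that break down amino acids showed the same division on a larger scale. Of 42, 41 were higher in liver and 28 enriched, with a median difference of 10.30 over heart and 2.43 over kidney. Tat, which starts tyrosine breakdown, was at 1174 to 1512 CPM in liver and at most 1.43 elsewhere, with a difference of 11.71 (SE 0.49, adjusted p = 5.24e-08). Tdo2 (the first step of tryptophan breakdown) and Hal (of histidine) had differences of 12.45 and 12.19. Got1, the cytosolic aspartate aminotransferase, was the 1 that did not pass (adjusted p = 0.669): its liver level of 240.2 to 258 CPM lay below every heart and above every kidney library. Under total counts Got1 was lower (-0.71, adjusted p = 1.81e-05).

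Glucose and glycogen genes were higher in liver in 21 of 22 cases, but only 8 were enriched, and the median was 5.16 over heart and 1.86 over kidney. G6pc, which releases free glucose, was at 771, 709 and 1169 CPM in liver, 167 to 259 in kidney and at most 0.225 in heart, so its difference was 12.33 over heart and 2.05 over kidney. Fbp1, of the same pathway, was at 1172 to 1393 and 590 to 678 CPM in liver and kidney and at most 0.408 in heart. Pck1, which commits carbon to glucose, was at 2154 to 2759 CPM in liver and 639 to 753 in kidney, and at 0.164, 1.07 and 85.0 in heart. Its difference of 4.14 (adjusted p = 0.0215) did not pass without liver 2, kidney 2 or kidney 3 (adjusted p = 0.0512 to 0.0556). Against kidney alone it did not pass (1.85, adjusted p = 0.307), and without heart 3 and kidney 3 it did (adjusted p = 1.14e-05).

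Several enzymes and carriers that exist in more than 1 form had different leading genes in liver and heart. Levels in this paragraph are means in CPM per kilobase of exon, with SD over 3 libraries. For pyruvate kinase, Pklr was at 163 ± 24.6 in liver and 9.94 ± 1.1 in kidney with 1 heart count in all, while Pkm2 was at 15.3 ± 1.77 in liver and 533 ± 70.3 in heart. Among glucose carriers, Slc2a2 was at 175 ± 35.2 in liver and Slc2a4, the insulin-regulated form, at 0.0512 ± 0.0102 in liver and 144 ± 13.8 in heart. The same exchange held for glycogen phosphorylase: Pygl was at 325 ± 0.641 in liver against 5.1 ± 5.37 in heart, and Pygm at 0.766 ± 0.0586 against 426 ± 62.2. Glycogen synthase followed it, with Gys2 at 76.6 ± 3.02 and Gys1 at 1.16 ± 0.0819 in liver, and 0.211 ± 0.349 and 42.1 ± 4.47 in heart. Phosphofructokinase and methionine adenosyltransferase had different leading genes too, but 1 form of each did not change with the organ in this way. Pfkl, the phosphofructokinase known from liver, was at 16.1 in liver and 33.0 in heart, while Pfkm was at 10.3 and 307. Mat2a, a methionine adenosyltransferase, was at 30.1 and 35.3, while Mat1a was at 1157 and 0.146.

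Kidney took an intermediate place in several of these families. Levels are in the same unit. For fatty acid entry into mitochondria, Cpt1a was at 165 ± 8.23 in liver and 86.4 ± 5.02 in kidney, and Cpt1b at 213 ± 30.5 in heart and 1.36 ± 0.228 in liver. Kidney resembled heart instead in lactate dehydrogenase, with Ldhb at 628 ± 29.4 in kidney, 926 ± 131 in heart and 2.01 ± 0.345 in liver. The other subunit gene, Ldha, was at 413 in liver, 340 in heart and 191 in kidney, and its difference between liver and heart did not pass (adjusted p = 0.0939). Glutaminase was a case of liver against both: Gls2 was at 204 ± 12.4 in liver and at 0.147 ± 0.0771 and 0.143 ± 0.0387 in heart and kidney. Fabp1, the liver fatty acid carrier, was at 2831 ± 332 in liver, while Fabp3 had no count in any liver library and stood at 3048 ± 652 in heart.

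**Figure D2:**
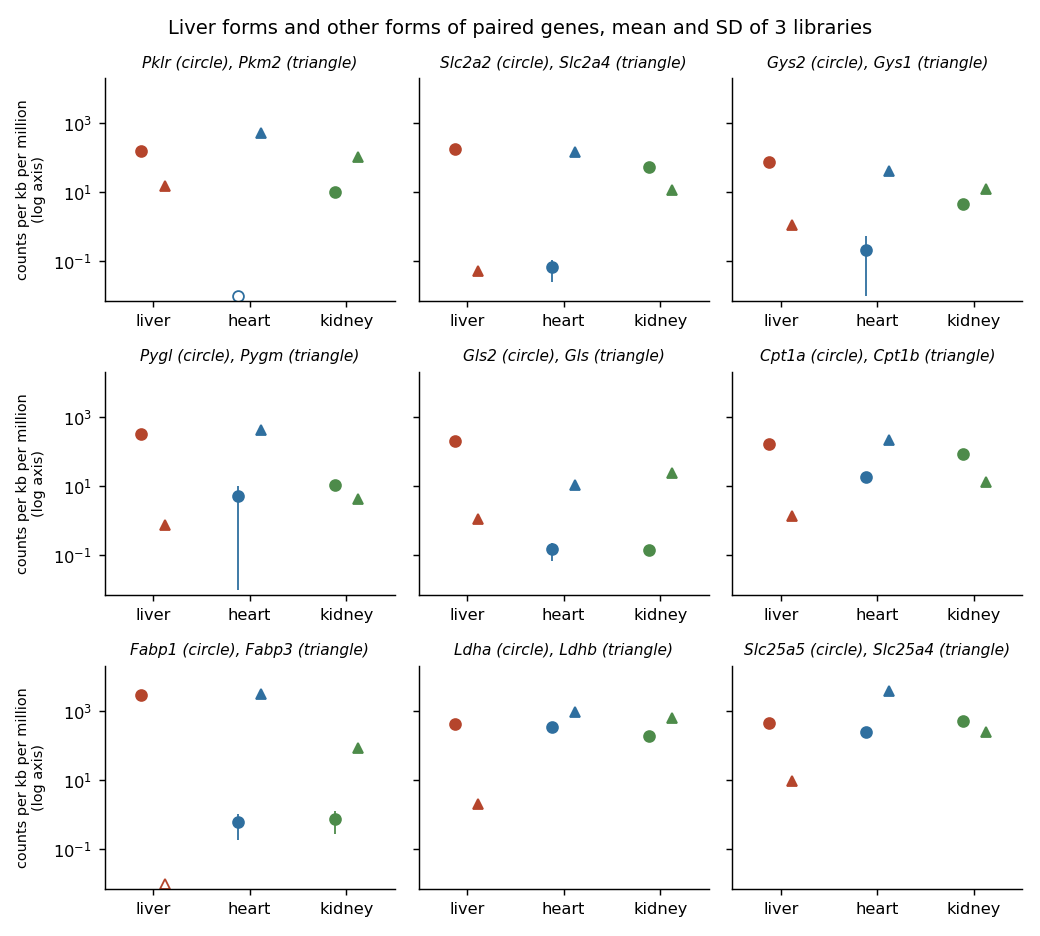
Mean level of 9 pairs of enzyme or carrier forms in liver, heart and kidney, in CPM per kilobase of exon on a log axis, with lines for the SD over 3 libraries (cut at 0.01). Circles are the form known from liver, triangles the form known from muscle or other tissue, and an open symbol marks a mean under 0.01, drawn there. Pygl and Pygm exchange places between liver and heart, as do Gys2 and Gys1.

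Fat synthesis genes were higher in liver in 18 of 21 cases, 12 of them enriched, with a median of 2.94. Scd1, which desaturates new fatty acids, was at 14825, 12206 and 16192 CPM in liver, 25.3, 27.1 and 1296 in heart and 278, 440 and 607 in kidney. All livers lay far above all others, and its difference was 5.01 (SE 1.23, adjusted p = 0.00719), or 7.22 without heart 3 and kidney 3. Fasn, fatty acid synthase, was at 2463 to 3524 CPM in liver, 69.1, 73.4 and 1271 in heart and 151, 366 and 396 in kidney, a difference of 2.94 (adjusted p = 0.0232) that no longer passed without liver 2 or liver 3 (adjusted p = 0.0621 and 0.0517) or under scaling to total counts (adjusted p = 0.0676). Against heart alone Fasn did not pass (adjusted p = 0.0799), and without those libraries it did (adjusted p = 0.000101). Heart 3 was also the heart with the most adipocyte marker RNA, and the part of that RNA in these values was not tested. Srebf1, the transcription factor that drives the pathway under insulin, did not show this dependence: it was at 385 to 541 CPM in liver and 47.2 to 60.2 in every other library, a difference of 3.17. Lpin1, Dgat1 and Pnpla3 did not pass. Lpin1 was lower under upper quartile scaling (-0.43, adjusted p = 0.0186) and total counts (-0.97, adjusted p = 0.000171), and Dgat1 was lower under total counts (-0.48, adjusted p = 0.00936) but higher without heart 3 (0.38, adjusted p = 0.00491) or liver 2 (0.39, adjusted p = 0.0345). Without heart 3 and kidney 3, 20 of the 21 were higher.

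Ketone body genes were mixed. Oxct1, with which other organs use ketone bodies, was at 6.12 to 7.11 CPM in liver and at 961 to 1479 in heart and 1115 to 1180 in kidney, a difference of -7.48 (SE 0.20, adjusted p = 6.27e-11). Bdh1, which interconverts the main ketone bodies, was higher in liver, with a difference of 3.01, while Acat1, which serves both directions, did not pass (adjusted p = 0.555) and was lower under total counts (-0.70, adjusted p = 1.36e-05). Over the list 4 of 9 were higher, 1 was lower and 4 did not pass, where 36.7% of all genes tested were higher and 41.5% lower. The list's median of 0.31 became -0.45, with 3 higher and 5 lower, under scaling to total counts.

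Cytochromes P450, which oxidise drugs, steroids and fatty acids, were higher in 25 of 26 cases with 21 enriched. Their median difference was 9.36, or 8.61 with genes that had no count in an organ set at their lower bound. Cyp3a11 was at 8268, 8691 and 8674 CPM in liver and at most 4.8 elsewhere. Cyp2e1, which oxidises ethanol and acetone, was at 5959 to 5975 CPM in liver, 111 to 143 in kidney and 0.219, 0.506 and 12.7 in heart. Cyp1a2, the caffeine oxidase, and Cyp2a12 stood 12.50 and 12.74 above kidney, with 3 counts and 1 count in all of heart. Cyp2c67 and Cyp2c68 had no count in heart and stood at least 1958-fold and 2688-fold above the heart floor, and like all Cyp2c genes they have close copies that can share reads. The exception was Cyp4b1, a form known from lung and kidney, at 24.2 to 25.8 CPM in liver, 401 to 515 in kidney and 20.3 to 26.8 in heart. Kidney held the highest mean level of 2 of the 26, Cyp4b1 among them. Por, which passes electrons to every microsomal P450, was spread more evenly, with a difference of 1.72.

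Conjugating enzymes, which make oxidised compounds soluble, were higher in 37 of 38 cases and enriched in 30, with a median of 6.29, or 5.73 with such genes at their bound. Ugt2b1, a glucuronosyltransferase, was at 636 to 892 CPM in liver and at most 0.219 elsewhere. Gsta3, a glutathione transferase, was at 1400 to 1520 CPM in liver, 2.7 to 3.23 in heart and 44.3 to 50.7 in kidney. Gstp1 varied between livers, at 1051, 579 and 755 CPM. Ces2a, a carboxylesterase, and Gulo, the last enzyme of vitamin C synthesis, had no heart count and stood at least 5314-fold and 4827-fold above the heart floor. The member that did not pass was Nat8, known from the kidney tubule, at 60.2 to 70.3 CPM in kidney and 1.01 to 2.95 in liver. Kidney held the highest mean level of 5 of the 38, Nat8 among them.

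**Figure D3:**
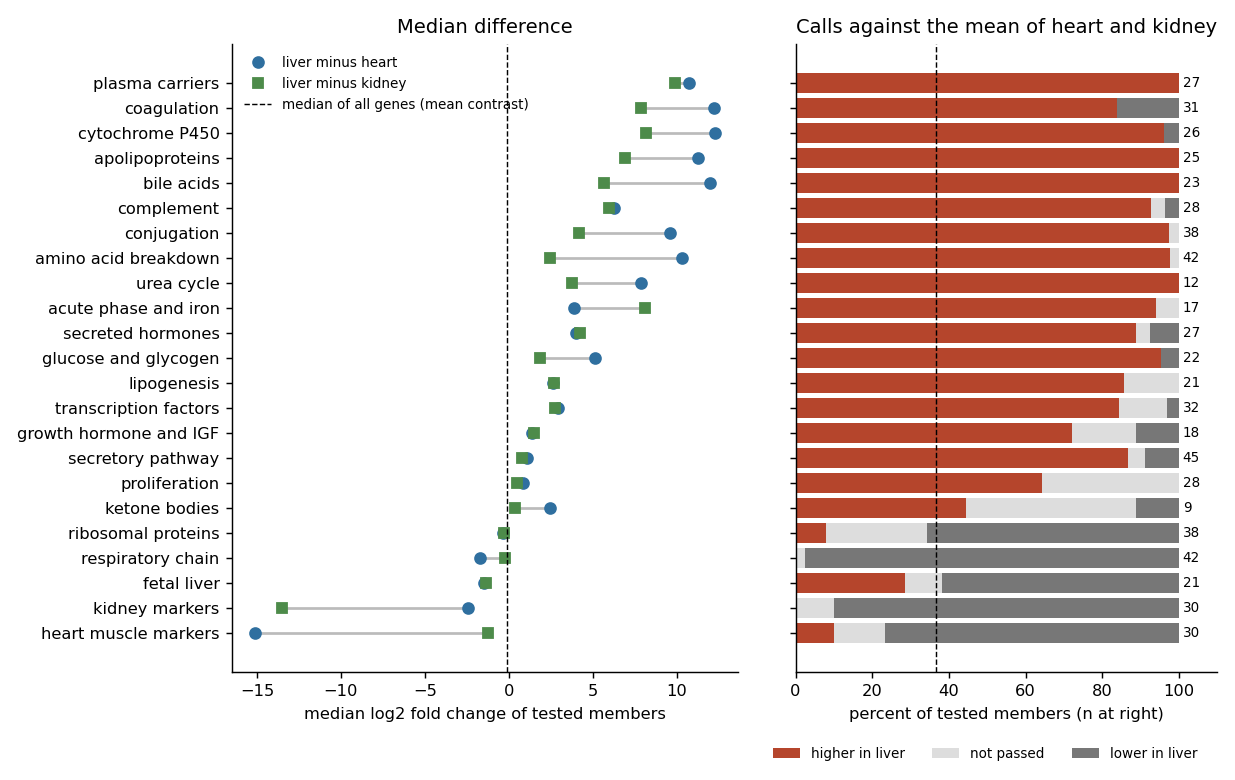
Left, median log2 fold change of the tested members of each gene list, liver minus heart (circles) and liver minus kidney (squares), with a dashed line at the median of all genes tested against the mean of both organs. Right, the percentage of tested members that were higher, lower or did not pass against that mean, with the number tested at the right and a dashed line at the 36.7% of all genes that were higher. The circle lies far to the right of the square for amino acid breakdown, bile acids and conjugation, and the 2 symbols nearly coincide for plasma carriers, complement and lipogenesis.

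Transcription factors of the hepatocyte network were higher in 27 of 32 cases and enriched in 14. Hnf4a was at 924, 850 and 1062 CPM in liver, 426, 619 and 521 in kidney and 0.0548, 0.843 and 0.0408 in heart. Its difference was 11.66 over heart and 0.86 over kidney (adjusted p = 0.04). Over kidney the difference of Hnf4a was -0.09 under scaling to total counts. The FOXA factors, which open chromatin ahead of the others, separated liver from kidney as well. Foxa2 was at 32.2 to 39.4 CPM in liver with 2 kidney counts and no heart count, and Foxa3 at 61.3 to 89.3 CPM in liver against at most 0.128, a difference of 10.68 (SE 0.23, adjusted p = 1.92e-11). The ratio of liver to the single heart count of Foxa3 was 4830, with a counting interval of 866 to 191000.

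Other regulators fell between these patterns. Cebpa was at 519 to 670 CPM in liver, 21.5 to 26.6 in kidney and 8.16, 9.22 and 34.2 in heart, a difference of 4.90 (SE 0.43, adjusted p = 1.77e-05). The xenobiotic sensors Nr1i2 (PXR) and Nr1i3 (CAR), which switch on P450 genes, had differences of 3.75 and 8.83 over kidney, and at most 0.164 CPM in heart. The bile acid receptor Nr1h4 (FXR) was at 161 to 184 CPM in liver and 72.2 to 84 in kidney, another factor shared with kidney, and Ppara, which drives fat oxidation in fasting, was at 495 to 595 CPM in liver and 82.2 to 107 in the other organs. Onecut1 was the least even between livers, at 53.0, 11.6 and 33.2 CPM. Cux2, a factor of the female liver in mice, was the 1 lower member, at 0.898 to 1.24 CPM in liver and 26.6 to 32.3 in heart.

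Growth hormone and insulin-like growth factor genes were mixed: 13 of 18 were higher, 2 lower and 3 did not pass, with a median of 1.38, and 11 higher and 6 lower under scaling to total counts. Igf1, the circulating growth factor that growth hormone induces in liver, was at 1658, 1144 and 1101 CPM in liver and 35.5 to 59.5 elsewhere, a difference of 4.74 (SE 0.18, adjusted p = 1.25e-09). Its plasma partner Igfals (4.83) and its binding protein Igfbp2 (8.79) were higher too, and Igfbp1 stood 4.81 above kidney with 1 heart count in all. The receptor that Igf1 acts on, Igf1r, was at 12.7 to 13.4 CPM in liver, 64.4 to 87.7 in heart and 268 to 387 in kidney, a difference of -3.64 (SE 0.16, adjusted p = 3.82e-09). Liver thus had the most ligand RNA and the least receptor RNA. Igf2, the fetal growth factor, was at 0.513 to 1.34 CPM in liver and 134 to 371 in heart. Ghr, the growth hormone receptor, was at 702 to 903 CPM in liver and 480 to 525 in kidney.

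Hormones and other signals secreted by hepatocytes were higher in 24 of 27 tested cases, 19 of them enriched, with a median of 4.37. Agt, the precursor of angiotensin, was at 932 to 1123 CPM in liver, 58.6 to 64.9 in kidney and 4.27 to 8.73 in heart. Lect2, a chemotactic protein, stood 8.34 above kidney with 1 heart count in all. The inhibin subunit Inhbc had no heart count and 194, 106 and 90.3 CPM in liver. Thpo, which drives platelet formation, was at 19.3 to 26.7 CPM in liver and 4.26 to 5.46 in kidney. Bmp6, which endothelial cells use to induce hepcidin, was lower, at 5.93 to 6.99 CPM in liver against 20.1 to 40 elsewhere. Fgf21, a fasting hormone, had too few counts to test, at 7.44, 0.592 and 2.62 CPM in liver and at most 0.0562 elsewhere.

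Genes known to mark the portal and the central end of the liver lobule were both present in these bulk libraries. All 21 periportal genes were higher in liver than the mean of heart and kidney, with 14 enriched and a median of 7.35. So were all 23 pericentral genes, with 15 enriched and a median of 5.42. Of these 23, 2 were highest in kidney. The periportal median was 11.88 over heart and 3.58 over kidney, and the pericentral one 7.46 and 5.03. Glul, glutamine synthetase of the innermost central cells, was at 1461 to 1624 CPM in liver, 284 to 322 in heart and 404 to 557 in kidney, and Axin2, a target of the Wnt signal there, at 12.8 to 22.0, 5.37 to 11.9 and 3.16 to 7.48. Axin2 did not pass under scaling to total counts (adjusted p = 0.101). Where in the lobule a gene was expressed was not measured.

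Heart and kidney each shared a different part of this program with liver. Genes at least 4-fold above heart and within 2-fold of kidney numbered 447 (2.95% of those tested), of which 25 belonged to the 16 lists of liver functions, and genes at least 4-fold above kidney and within 2-fold of heart numbered 101 (0.666%), with 6. These limits were chosen after the values were seen. Over the 16 lists, 393 distinct genes were tested, 360 were higher than the mean and 260 were enriched over both organs. Those shared with kidney included Fbp1, Hnf4a and Khk (ketohexokinase, the first step of fructose use). Slc27a2, which activates very long chain fatty acids, was level with kidney, with a difference of 0.07 over it (adjusted p = 0.868) and 9.82 over heart. Those shared with heart included Acacb, the acetyl-CoA carboxylase of the mitochondrial surface, at 468 to 525 CPM in liver and 529.8 to 602 in heart against 66.6 to 89.6 in kidney, and Ndrg2, at 1469 to 1514, 863 to 995 and 59.2 to 74.3 CPM. The ranges of 2-fold depend on the scaling: under total counts the liver to kidney difference of Fbp1 was 0.00. Under that scaling Cpt1a (-0.01), Nr1h4 (0.18), Por (-0.28), Afp (0.70) and Lpin1 (0.01) also no longer passed over kidney, and Ghr (-0.31, adjusted p = 0.0125) and Khk (-0.65, adjusted p = 0.000106) were lower than in kidney. Slc27a2 was at -0.87 (adjusted p = 0.0547), and Ass1 still passed at 0.37 (adjusted p = 0.0426). Over heart, Ndrg2 (0.09) and Cd68 (-0.18) no longer passed, and Acacb was lower (-0.76, adjusted p = 0.000171).

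**Figure D4:**
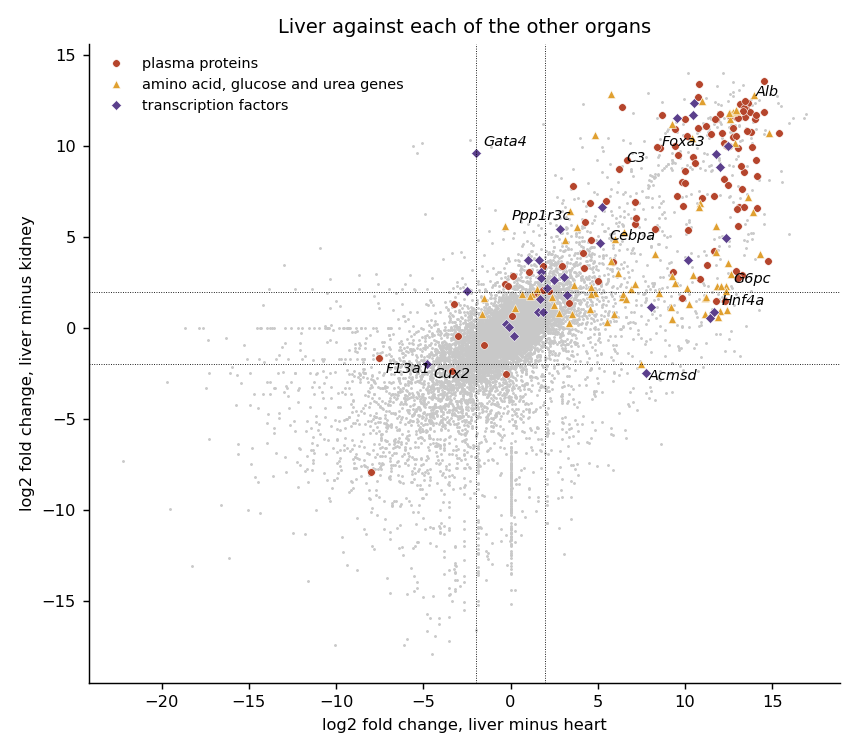
Each tested gene by its log2 fold change of liver over heart (horizontal axis) and of liver over kidney (vertical axis), with dotted lines at 4-fold. Coloured symbols are members of the plasma protein lists, of the amino acid, glucose and urea lists and of the transcription factor list, and a gene with no counts in liver and in 1 of the organs plots at 0 on that organ's axis. Hnf4a lies near 0 on the vertical axis and far to the right, while Alb is high on both.

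Among the genes depleted in liver, 216 had no count in any of its libraries, among them genes of contraction, of muscle metabolism and of the tubule. Myh6, the main cardiac myosin heavy chain of adult mice, was at 29180, 32484 and 29581 CPM in heart and had no liver count, at least 162600-fold above the liver floor in heart and 5.26-fold in kidney. Ryr2, the calcium release channel of cardiac muscle, was at least 25260-fold and 32.7-fold above that floor. Fabp3, the fatty acid carrier of muscle, was at 1470 to 2226 CPM in heart and 49.8 to 61.1 in kidney, at least 10430-fold and 288.8-fold above the floor of liver. Cubn, the receptor by which the proximal tubule takes up filtered protein, was at 1031 to 1251 CPM in kidney and 6.03 to 7.7 in heart, at least 5948-fold and 36.3-fold above it. Pgam2, of muscle glycolysis, and Car4, a membrane carbonic anhydrase, were without liver counts too, and so were Trim63 and Cox8b, a muscle ubiquitin ligase and a muscle subunit of cytochrome oxidase. The 1492 depleted genes held 0.234% ± 0.0162 of liver counts, 20.9% ± 0.787 of heart and 10.4% ± 0.0456 of kidney (SD, n = 3).

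Machinery common to all cells differed less and partly with the scaling. Genes of the secretory pathway, which make and export proteins, were higher in 39 of 45 cases with a median of 0.95, which was 24 higher and 12 lower with a median of 0.19 under scaling to total counts. Pdia4, which folds proteins in the endoplasmic reticulum, was at 595, 397 and 378 CPM in liver, 55.8 to 56.0 in heart and 87.8 to 107 in kidney, and Sec61a1, the channel through which nascent proteins enter it, at 341 to 462, 76.5 to 88.9 and 111 to 128. Respiratory chain genes were lower in 41 of 42 cases with a median of -0.96, and lower in 42 of 42 under that scaling. Most of that came from heart, with a median of -1.74 over heart and -0.23 over kidney: Cox4i1, a subunit of cytochrome oxidase, was at 363 to 406 CPM in liver, 1726 to 1922 in heart and 766 to 911 in kidney. Ribosomal protein genes were lower in 25 of 38 cases and higher in 3, and lower in 37 and higher in none under total counts.

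Genes of cell division were higher in liver in 18 of 28 cases and lower in none, with a median of 0.74, but none was enriched and the direction rested on the scaling, with 4 higher, 4 lower and a median of -0.02 under total counts. Ccnb1, the mitotic cyclin, was at 11.7 to 15.3 CPM in liver, 2 to 5.96 in heart and 4.23 to 8.4 in kidney, with heart 3 and kidney 3 the lowest, and did not pass under total counts (adjusted p = 0.119). Mki67, a marker of cycling cells, did not pass (adjusted p = 0.191), at 60 to 95.5 CPM in liver and 23.2 to 63.7 elsewhere. Genes known from fetal liver were higher in 6 of 21 cases and lower in 13, where 36.7% and 41.5% of all genes tested were. Afp, the fetal counterpart of albumin, was at 3.85, 5.86 and 7.53 CPM in liver, 1.37 to 2.38 in kidney and had no heart count, while Gpc3 was at 3.21 to 6.44 CPM in liver against 11.8 to 36.1 elsewhere and Dlk1 had no liver count.

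Markers of cells other than hepatocytes were measured in the same libraries. Of 12 Kupffer cell markers, 11 were higher in liver than the mean and 4 enriched, where 36.7% and 6.53% of all genes tested were. Their median difference was 0.40 over heart and 2.79 over kidney, and 3 of them were highest in heart. C1qa was lower than in heart (-0.30, adjusted p = 0.023), and C1qb (-0.15) and C1qc (0.14) did not pass against heart. Clec4f, a receptor of these resident macrophages, was at 149, 160 and 131 CPM in liver and at most 0.163 elsewhere, and Marco at 16.1 to 20.5 against at most 0.112. Cd68, carried by macrophages of every organ, was at 13.3 to 17.0 CPM in liver and 9.13 to 12.9 in heart. Of 12 markers of liver endothelium, 9 were higher than the mean and 3 lower, and 7 were highest in liver and 5 in heart. Their summed level was 1153 to 1249 CPM in liver, 1013 to 1349 in heart and 400 to 429 in kidney. Among those higher, Stab2, the scavenger receptor of sinusoids, was at 208 to 243 CPM in liver, 0.438 to 0.506 in heart and 9.64 to 10.9 in kidney. Of 14 stellate cell and fibroblast genes, 7 were higher and 6 lower, where 36.7% and 41.5% of all genes tested were: Lrat and Reln, known from the vitamin A storing stellate cell, had differences of 3.48 and 4.57, and Col1a1, the fibrillar collagen, -2.97.

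Markers of heart muscle and kidney tubule were low in liver. The 30 heart muscle genes summed to 686 to 903 CPM in liver, with 7 of them at 0, against 161888 to 188740 in heart and 846 to 1043 in kidney. The 30 tubule genes summed to 229 to 247 CPM in liver, with 14 at 0, against 31508 to 33998 in kidney and 143 to 171 in heart. Red cell genes summed to 581 to 924 CPM in liver, 4554 to 6509 in heart and 513 to 869 in kidney. Of 8 tested, 7 were lower in liver than the mean, where 41.5% of all genes tested were. Adipocyte genes, Cfd among them, summed to 5.45 to 8.41 CPM in liver, with 6 of 9 at 0. They summed to 456, 395 and 666 in heart and to 43.6, 139 and 145 in kidney. Bile duct genes summed to 97.9 to 118 CPM in liver and 1131 to 1259 in kidney, with Krt7, a duct keratin, at 0.829 to 1.66 CPM in liver. Lymphocyte genes summed to 7.21 to 10.4 CPM in liver and 3.79 to 7.96 in the others. Of 7 tested, 4 were higher in liver than the mean, where 36.7% of all genes tested were. These 4 calls were lost under scaling to total counts. Pancreas genes summed to 10.7 to 18.5 CPM in liver with 9 of 11 at 0, to 0.329 to 0.612 in heart and to 68.6 to 78.8 in kidney.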

How the data were processed

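Per the file headers, the authors assigned read pairs to UCSC exons on mm9 and summed them by gene, reverse-stranded (setting 2), keeping mapping qualities from 2 upward. Per the submitters' processing notes, HISAT2 2.1.0 and featureCounts 1.5.0 were used, with bcl2fastq and SAMtools. Reads that mapped to several places or genes were counted as fractions, so the deposited values are estimated counts (per the file headers), and members of families of similar genes can share reads. Genes whose values were not whole made up 46.2 to 60.1% of a chow library's counts. Per the labels' protocols, RNA had an integrity number above 4 and went into stranded mRNA libraries.

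Estimated counts were rounded, which changed totals by at most 0.000664%. The 9 chow libraries were fitted in 1 edgeR 4.0.16 model (R 4.3.3, filterByExpr, TMM, quasi-likelihood with robust dispersion), with p-values adjusted by Benjamini-Hochberg over 15171 of 22609 genes. Values per kilobase use the exon lengths of the files. On simulated counts for 14836 genes, 91% of 2-fold and 99% of 4-fold changes were recovered, with 5% false calls. The simulation gave each gene 1 mean across the organs. It then changed 100 genes per fold in liver, as many up as down, drawn from genes above a minimum level. It did not hold the difference in composition between the organs, so it gives no error rate for calls that depend on the scaling. No replicate pair agreed within counting noise: the median squared deviation was 1.23 to 4.11 against 0.455. Alternatives were scaling, filters, DESeq2 1.42.0, limma-voom (limma 3.58.1), all 18 libraries in 1 model, a replicate block, genes with whole counts only, other thresholds and leaving out libraries.

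The comparison, the 33 gene lists and the named genes were chosen with earlier results of these data known. Named genes were classic liver genes, the 12 largest rises and 8 largest falls with an average log2 CPM of at least 2, the 10 highest in liver, and list members with their roles. Members described beyond this rule were picked after their values were seen. Promoters are RefSeq's on GRCm38.p6, matched by symbol, and no coordinates were moved between builds. No promoter entry was matched for Cps1 or Cyp7a1. Some genes and a promoter motif are not reported here. Counting intervals cover counting error only.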

Additional observations from a re-analysis of the deposited data

How the results depend on the processing

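Of 109 counts of genes recomputed under an alternative, 98 stayed within 1.5 times the reported count. Under scaling to total counts 2640 genes were higher and 10236 lower, and 2403 stood at least 4-fold below both organs. Among the 7105 tested genes with whole counts in every library, a smaller set by construction, 2412 were higher, 2852 lower, 445 at least 4-fold above both organs, 851 below both, and 68 of the 75 members of the liver lists were higher. At a fold of at least 2, 1807 genes stood above both organs and 2564 below, and edgeR's test against a 4-fold threshold called 933 below both. Leaving out each library in turn gave 5346 to 5747 higher genes, 5995 to 6291 lower, 973 to 1027 above both, 1442 to 1574 below both and 359 to 365 list members. With the replicate number as a block the counts were 5553 higher, 6243 lower, 993 above both, 1483 below both and 361 list members. Mki67 passed as higher with the block (0.54, adjusted p = 0.0281). The labels do not say whether 1 number marks 1 mouse across organs, and 3 libraries an organ cannot settle it for liver. Over 7457 genes, correlations of liver deviations with same-numbered hearts were -0.004 to 0.009 and with same-numbered kidneys -0.074 to 0.15. Between same-numbered hearts and kidneys they were 0.138 to 0.18. Those of liver with differently numbered kidneys were -0.189 to 0.129. Dbp and Per1 were lowest at number 1 in each organ. The main fit took all libraries as independent. Genes that had not passed changed sign: Acat1 was at -0.15 under upper quartile scaling, -0.70 under total counts and -0.02 to 0.14 when 1 library was left out, and Got1 at -0.17, -0.71 and, without heart 3 and kidney 3, -0.01. Dgat1 and Mki67 were at -0.48 and -0.25 under total counts, and Nat8 at -0.74 to 0.40 when 1 library was left out, above 0 without liver 2 (0.07) or heart 2. Acat1, Got1 and Dgat1 passed as lower under total counts (adjusted p = 1.36e-05, 1.81e-05 and 0.00936). The cause was not tested. DESeq2 gave no adjusted p for 7 of the named genes, Alb among them, which stay out of these counts.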

Other observations

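Genes known to differ between male and female mouse liver were also measured. Of 11 genes known as higher in males, 11 were higher in liver than the mean of heart and kidney and 11 were at least 4-fold above both, with a median difference of 9.15. Over all genes tested these shares were 36.7% and 6.53%. Hsd3b5, a steroid dehydrogenase of male liver, was at 462, 201 and 253 CPM in liver and had no heart count. Of 7 tested genes known as higher in females, 6 were higher in liver than the mean of heart and kidney and 1, Cux2, lower. Under scaling to total counts 5 were higher. Hao2, 1 of the 6, was at 7.08 to 21.1 CPM in liver but at 171 to 202 in kidney. It was lower than in kidney, at -3.60 (adjusted p = 4.72e-05). Cyp2b9 of that list varied between livers, at 46.3, 201 and 60.5 CPM, with no kidney count.

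Of 16 clock genes tested, 9 were higher in liver, 2 lower and 5 did not pass, with a median of 0.45, where 36.7% of all genes tested were higher and 41.5% lower. Under scaling to total counts 3 were higher and 8 lower, with a median of -0.31. Dbp, an output gene of the clock, was at 5.83, 24.5 and 39.7 CPM in liver, 23.1, 36.3 and 54.8 in heart and 29.3, 39.2 and 45.6 in kidney. Per1 was at 4.87, 11.9 and 25.6 CPM in liver, 20.3, 37.6 and 41.8 in heart and 21.0, 30.1 and 45.1 in kidney. Neither passed against the mean of the other organs (adjusted p = 0.274 and 0.0712). Within each replicate number liver was the lowest of the organs for both genes, and number 1 was the lowest in each organ. With the replicate number as a block both passed as lower, Dbp at -0.89 (adjusted p = 0.0477) and Per1 at -1.35 (adjusted p = 0.000845), and 6 of the 16 genes were lower. These lists were written after the main values had been seen.

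Among the 25 genes at least 4-fold above both organs that had no count in any heart or kidney library, Prhoxnb had the highest liver level, at 65.8, 57.6 and 69.1 CPM, at least 431.9-fold above the heart floor and 510.1-fold above the kidney floor. Others were Mup21 and Cyp2a22, at 28.6 to 59.0 and 21.3 to 46.5 CPM in liver.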
